A study of Homo sapiens with 12 samples.

Results

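The cytokine response of HaCaT_sh was described here gene by gene. HaCaT is an immortalised human keratinocyte line, and HaCaT_sh carries a doxycycline-inducible hairpin RNA directed against IQGAP3. The stimulated cultures (HaCaT_sh+cyto, 3 libraries) were kept for 72 h with 3 cytokines, of which IL-17 was given at 100, TNFα at 25 and IFNγ at 20 ng/mL, and the unstimulated cultures of the same line (HaCaT_sh, 3 libraries) received none. The other 6 of the 12 RNA-seq libraries came from a line with a scrambled hairpin, with the same cytokines (HaCaT_ctrl+cyto, 3 libraries) or without them (HaCaT_ctrl, 3 libraries). All 4 groups were grown with doxycycline at 1000 ng/mL. The hairpins were introduced by lentivirus and the cells selected with puromycin. The labels call the 3 libraries of each group biological replicates and do not say how these were grown apart, so the p-values measure the spread between these libraries. The genes were taken by level: 13480 of the 57370 genes in the counts table had at least 1 CPM (a gene's counts scaled to a common library total) in at least 3 of the 6 HaCaT_sh+cyto and HaCaT_sh libraries. The group of a library played no part in that choice. A gene could still pass through only HaCaT_sh+cyto or only HaCaT_sh, so the choice was not independent of the change with cytokines. Just inside this threshold, 1179 genes reached 1 CPM in exactly 3 libraries (median 1.40 CPM), and just outside it 370 reached it in exactly 2 (median 0.771 CPM). In all, 13677 genes had counts but stayed below the threshold, and 30213 had no count in the 6 libraries. In the whole series, 13296 genes had at least 1 CPM in at least 6 of the 12 libraries.

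IFNγ binds its receptor on the keratinocyte surface and activates STAT transcription factors through the JAK kinases. STAT dimers bind GAS elements, and factors induced downstream bind ISRE elements. TNFα activates NF-kB through TNFR1, and IL-17 acts through IL17RA and IL17RC, the adaptor ACT1 and, in part, IκBζ. Together these cytokines dominate the lesional skin of psoriasis, where keratinocytes secrete chemokines and antimicrobial proteins and change their differentiation.

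IQGAP3, a scaffold protein of the IQGAP family that is made mostly by dividing cells, is the target of the hairpin, and its counts were read first as a check of the labels. The sense strand of the hairpin stem is shown because it defines the line. It lies on chr1:156496314-156496337 (GRCh37, minus strand), in exon 38 of the 38 exons of IQGAP3 and inside the coding sequence, and all 24 of its bases matched transcripts of IQGAP3 and of no other gene in Gencode 44.

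hairpin target in IQGAP3: gccaaagtcaatgtcaaccttctc

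With all 12 libraries scaled together, IQGAP3 was at 1.15, 1.64 and 0.911 CPM in HaCaT_sh+cyto, against 115, 101 and 98.01 CPM in HaCaT_sh. It was at 1.89, 3.96 and 4.06 CPM in HaCaT_ctrl+cyto, against 74.8, 70.2 and 77.1 CPM in HaCaT_ctrl. The unstimulated libraries labelled HaCaT_sh therefore all lay above those labelled HaCaT_ctrl, which is the reverse of the label, whereas with cytokines all 3 HaCaT_sh+cyto libraries lay below all 3 HaCaT_ctrl+cyto libraries. Throughout, HaCaT_sh and HaCaT_sh+cyto mean the libraries labelled so. Of 13296 genes, 19 differed at least 4-fold between the lines (group mean CPM plus 1) both with and without cytokines, 13 of them higher and 6 lower in the line labelled HaCaT_sh in both states and none in opposite directions. Across all genes the line differences of the 2 states, which come from separate libraries, had a Pearson correlation of 0.57. An exchange of both lines' labels in both states would leave these values the same, apart from their sign. Within them, IQGAP3 fell with cytokines (log2 fold change −6.41, SE 0.143, adjusted p = 1.32e-10). IQGAP1, the widely expressed paralog, was at 459.7, 447 and 423 CPM in HaCaT_sh+cyto, against 511, 501 and 504 CPM in HaCaT_sh, and it was not called (log2 fold change −0.19, adjusted p = 0.0113). IQGAP2 stayed below the filter.

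All values below, unless said otherwise, are normalised CPM, that is CPM scaled by the trimmed mean of M-values (TMM) over the 6 libraries. A gene was called where edgeR's quasi-likelihood test gave a Benjamini-Hochberg adjusted p below 0.01 and the change was at least 2-fold. By this rule 2013 of the 13480 genes (14.9%) were higher in HaCaT_sh+cyto and 2827 (21.0%) were lower, together 35.9%. Another 2836 higher and 2127 lower genes had an adjusted p below 0.01 but changed by less than 2-fold, and 3677 did not reach that p. Of the calls, 1750 of the higher and 2352 of the lower genes were protein coding. At least 4-fold changes were seen for 596 higher and 1218 lower genes, and at least 32-fold changes for 116 higher and 187 lower genes. Of the tested genes 267 passed the filter only through HaCaT_sh+cyto, of which 262 were called, and 851 only through HaCaT_sh, of which 783 were called. The genes called higher took 32.2% to 32.7% of all counts in HaCaT_sh+cyto, against 10.8% to 11.2% in HaCaT_sh. Those called lower took 4.51% to 4.97% in HaCaT_sh+cyto, against 19.4% to 19.9% in HaCaT_sh. All 4840 called genes had groups that did not overlap, but so did 82.3% of all tested genes, 40.2% higher and 42.1% lower, so non-overlap alone separates little here. Scaling by library size alone, without TMM, moved the median of all genes by −0.21 on the log2 scale and turned the counts to 1504 higher and 3417 lower genes. The higher genes were then 30.6% of the calls, against 41.6% with TMM. A change close to 2-fold can therefore gain or lose its call with the scaling. The median log2 fold change over all tested genes was −0.02. Below, a number in parentheses after a gene name is its log2 fold change, HaCaT_sh+cyto over HaCaT_sh. Genes were grouped in 48 lists that together held 1382 genes, of which 1153 were tested, 169 had counts below the filter, 53 had no count and 7 were not matched by name. The counts called in each list are to be read beside the 14.9% higher and 21.0% lower of all tested genes. In many lists some called members passed the filter only through the group where they were high. For such members the filter fixed the direction in advance.

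The libraries of a group resembled each other closely. They held 13079055 to 17135245 counts in HaCaT_sh+cyto, against 15672120 to 16972732 counts in HaCaT_sh, and correlations of log2 CPM were 0.989 to 0.995 within a group and 0.815 to 0.831 between groups. The first principal component took 95.2% of the variance. Of the 12 keratinocyte markers all were tested, and their summed level was 16086 to 16569 CPM in HaCaT_sh+cyto, against 11415 to 12066 CPM in HaCaT_sh. Of the 12, 7 were called higher and 2, KRT5 and TP63, lower. LAMB3 alone had a mean of 5712 CPM in HaCaT_sh+cyto, against 1108 CPM in HaCaT_sh, and KRT5 a mean of 148 CPM in HaCaT_sh+cyto, against 4317 CPM in HaCaT_sh. Of 7 leukocyte markers none passed the filter, with sums of 0.162 to 0.546 CPM in HaCaT_sh+cyto, against 0.297 to 0.380 CPM in HaCaT_sh, and PTPRC (CD45) had no count. Fibroblast markers summed to 7.18 to 9.08 CPM in HaCaT_sh+cyto, against 37.6 to 55.4 CPM in HaCaT_sh, with 3 of 8 tested, and PDGFRA without a count. Endothelial markers summed to 0.648 to 1.57 CPM in HaCaT_sh+cyto, against 15.7 to 29.8 CPM in HaCaT_sh, and melanocyte markers to 9.80 to 11.1 CPM in HaCaT_sh+cyto, against 29.9 to 30.5 CPM in HaCaT_sh, with TYR without a count. The part of such cells in the results was not tested.

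**Figure D1:**
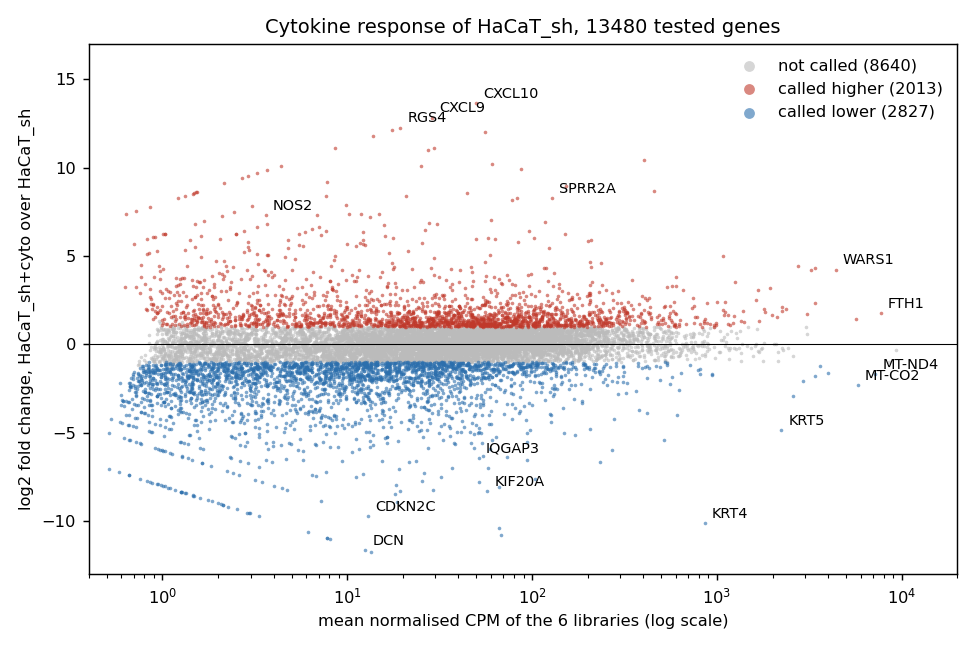
Each point is 1 of the 13480 tested genes, with its mean normalised CPM over the 6 libraries on a log axis and its log2 fold change, HaCaT_sh+cyto over HaCaT_sh. Red points are the 2013 genes called higher and blue points the 2827 called lower. CXCL10 has the largest fitted increase, while IQGAP3 and KIF20A lie deep among the decreases and MT-CO2 and MT-ND4 lie at the high-count end of the decreases.

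Of 16 tested receptors and adaptors of the 3 cytokines 2 were higher (12.5%) and 4 lower (25%), shares close to those of all genes, and 2 of the 4 lower ones passed the filter only through HaCaT_sh. In a test against a 2-fold change 2 were lower. IL17RE, an epithelial chain of the IL-17 receptor family other than IL17RA and IL17RC, was at 0.999, 0.405 and 0.341 CPM in HaCaT_sh+cyto, against 14.7, 15.1 and 16.6 CPM in HaCaT_sh (log2 fold change −4.66, SE 0.242, adjusted p = 2.84e-08). All 3 HaCaT_sh+cyto libraries were far below HaCaT_sh, and without HaCaT_sh+cyto replicate 1, the highest of them, the log2 fold change was −5.36. TNFRSF1A, which encodes the TNFR1 receptor of TNFα, was at 106, 96.4 and 137 CPM in HaCaT_sh+cyto, against 261, 272 and 296 CPM in HaCaT_sh (log2 fold change −1.29, SE 0.114, adjusted p = 1.65e-06), a fall of somewhat more than 2-fold that did not pass a test against 2-fold itself (adjusted p = 0.0131). IL17RC, the partner of IL17RA, fell as well (log2 fold change −1.32), whereas IL17RA (0.64), IFNGR1 (−0.63) and IFNGR2 (0.14) were not called. TRAF3, an adaptor that restrains non-canonical NF-kB, was at 88.8, 83.6 and 81.3 CPM in HaCaT_sh+cyto, against 19.5, 20.3 and 20.1 CPM in HaCaT_sh (log2 fold change 2.08, SE 0.0670, adjusted p = 1.08e-09). IL17RD, a receptor-like protein, also rose (2.09).

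Of 20 tested signal transducers, the STAT, IRF and SOCS genes, 3 were called higher (15%, beside 14.9% of all genes) and 2 lower (10%, beside 21.0%). At an adjusted p below 0.01 in edgeR, whatever the size of the change, 8 were higher and 6 lower. The median log2 fold change of the 20 genes was 0.10 and turned to −0.11 with library size alone. SOCS1, the inhibitor of JAK kinases that IFNγ induces, was at 16.98, 16.3 and 15.6 CPM in HaCaT_sh+cyto, against 0.489, 0.356 and 0.920 CPM in HaCaT_sh (log2 fold change 4.77, SE 0.216, adjusted p = 1.07e-08), so it was nearly silent in all 3 HaCaT_sh libraries. IRF1, an early IFNγ target, had a log2 fold change of 0.86 and was under the 2-fold rule. CISH (log2 fold change −1.33) and STAT4 (−1.99) fell, but neither passed the test against a 2-fold change (adjusted p = 0.136 and 0.0223).

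Among 21 tested NF-kB subunits and inhibitors 9 were higher and 1 lower, with a median log2 fold change of 0.90, beside 14.9% and 21.0% of all genes. TNFAIP3, which encodes the A20 brake on NF-kB, was at 415, 413 and 405 CPM in HaCaT_sh+cyto, against 7.27, 5.64 and 7.41 CPM in HaCaT_sh (log2 fold change 5.92, SE 0.0967, adjusted p = 2.91e-11). NFKBIZ, which encodes IκBζ, the IL-17-inducible cofactor, was at 113, 109 and 139 CPM in HaCaT_sh+cyto, against 22.7, 28.6 and 25.4 CPM in HaCaT_sh (log2 fold change 2.23, SE 0.111, adjusted p = 2.05e-08). Both genes rose in all 3 libraries by margins far above the spread within a group. RELB (log2 fold change 2.73), TNIP1 (1.82) and NFKBIE (1.56) also rose, and REL, a subunit of NF-kB, fell (−1.05) but lost its call without HaCaT_sh+cyto replicate 1 (−0.95) or replicate 2 (−0.86).

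Among AP-1 genes 8 of 13 were higher (61.5%) and 1 was lower (7.69%), beside 14.9% and 21.0% of all genes. FOSL1, the FRA1 subunit of AP-1, was at 406, 430.4 and 348 CPM in HaCaT_sh+cyto, against 7.49, 6.06 and 6.61 CPM in HaCaT_sh (log2 fold change 5.87, SE 0.114, adjusted p = 5.93e-11), so the stimulated libraries held many times more of it. BATF2, an interferon-inducible partner of AP-1, was at 40.8, 37.5 and 45.7 CPM in HaCaT_sh+cyto, against 0.109, 0.0594 and 0.172 CPM in HaCaT_sh (log2 fold change 8.41, SE 0.208, adjusted p = 2.17e-10). MAFF (2.87), MAFG (1.53) and MAFK (1.24), the small MAF proteins, also rose, and FOS was lower (−2.31). Of 17 tested Toll-like receptor genes 5 were higher (29.4%, beside 14.9% of all genes) and 5 lower (29.4%, beside 21.0%). Of these 1 of the higher ones had passed the filter only through HaCaT_sh+cyto and 3 of the lower ones only through HaCaT_sh. The adaptor TICAM1 (2.75) and the kinase IRAK1 (1.45) rose, and the kinase IRAK2 rose with 213 counts in HaCaT_sh+cyto, against 3 in HaCaT_sh (86.9-fold, with a counting interval of 29.4 to 425), and a fitted log2 fold change of 6.26 that was 7.12 without HaCaT_sh replicate 2. Here and below such intervals are exact 95% intervals that cover counting error only. The receptors TLR3 (−3.15) and TLR5 (−4.23) fell.

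CXCL10, CXCL9 and CXCL11 were among the 12 largest increases of the response. Of 12 tested chemokine genes 9 were higher and 2 lower, with a median log2 fold change of 3.31, and 5 of the 12 passed the filter only through HaCaT_sh+cyto. CXCL10, a ligand of CXCR3, a chemokine receptor of T cells, was at 72.4, 67.8 and 159.5 CPM in HaCaT_sh+cyto and had no count in any HaCaT_sh library, so it was at least 1754-fold higher (3 counts allowed over the unstimulated group). CXCL9, a ligand of the same receptor, was at 50.8, 59.00 and 62.7 CPM in HaCaT_sh+cyto, again with no count in HaCaT_sh, and was at least 1009-fold higher. CXCL11, the remaining CXCR3 ligand, was at 21.5, 18.97 and 42.5 CPM in HaCaT_sh+cyto with no count in HaCaT_sh and was at least 486-fold higher. HaCaT_sh+cyto replicate 3 held the highest CXCL10 and CXCL11, although all 3 libraries were far above HaCaT_sh.

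Other chemokines were higher in stimulated libraries and had counts without cytokines too. CXCL8, which encodes the neutrophil attractant IL-8, was at 102, 77.8 and 164 CPM in HaCaT_sh+cyto, against 5.26, 2.67 and 2.47 CPM in HaCaT_sh (log2 fold change 5.03, SE 0.329, adjusted p = 1.59e-07). CXCL1, a CXCR2 ligand, was at 21.04, 15.6 and 24.8 CPM in HaCaT_sh+cyto, against 1.95, 1.42 and 1.67 CPM in HaCaT_sh (log2 fold change 3.60, SE 0.209, adjusted p = 6.36e-08). CXCL16, a scavenger receptor and chemokine, was at 471, 402 and 601 CPM in HaCaT_sh+cyto, against 144, 139 and 145 CPM in HaCaT_sh (log2 fold change 1.79, SE 0.123, adjusted p = 2.40e-07). These groups did not overlap in any of the 3 genes. CXCL6, another neutrophil attractant, was not called (log2 fold change 1.00, adjusted p = 0.0256). CXCL1 has close copies in CXCL2 and CXCL3, among which reads can be split. CCL2, a monocyte attractant, moved the other way, at 0.375, 0.0810 and 0.478 CPM in HaCaT_sh+cyto, against 2.33, 5.28 and 2.59 CPM in HaCaT_sh (log2 fold change −3.35, SE 0.503, adjusted p = 1.06e-04), and CCL22 fell by 1.03 on the log2 scale. Its call was lost without HaCaT_sh+cyto replicate 1 (−0.96) or 2 (−0.95), or without HaCaT_sh replicate 2 (−0.94) or 3 (−0.98).

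Promoter windows of 4 chemokine genes, ICAM1 and IL32 are shown because these genes rose and hold a motif of the factors named above. They are examples chosen after the values were seen. They were taken from RefSeq (GRCh38.p14) within 250 bases upstream of the transcription start, with 20 bases on each side of a match (fewer where those 250 bases begin), read along the gene. Capitals mark ISRE (TTTC, any 2 bases, TTTC) in CXCL10 and CXCL9, GAS (TTC, any 3 bases, GAA) in CXCL11 and ICAM1, and the kB motif (GGG, any 2 bases, TTTCC) in CXCL1 and IL32, searched on both strands. Matches of different motifs may overlap. ISRE stands on the reverse strand in both genes.

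CXCL10: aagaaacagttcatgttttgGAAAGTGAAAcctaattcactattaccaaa
CXCL9: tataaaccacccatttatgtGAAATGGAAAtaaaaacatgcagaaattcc
CXCL11: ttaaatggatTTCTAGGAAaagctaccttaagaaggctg
ICAM1: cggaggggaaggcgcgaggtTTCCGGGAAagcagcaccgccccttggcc
CXCL1: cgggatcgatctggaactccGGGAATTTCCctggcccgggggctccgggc
IL32: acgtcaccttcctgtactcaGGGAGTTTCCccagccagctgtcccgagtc

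The windows lie at chr4:76023689-76023738 for CXCL10, chr4:76007651-76007700 for CXCL9, chr4:76036282-76036320 for CXCL11, chr19:10271025-10271073 for ICAM1, chr4:73869294-73869343 for CXCL1 and chr16:3065284-3065333 for IL32. The matches began 221 bases upstream of the start in CXCL10, 171 in CXCL9, 240 in CXCL11, 75 in ICAM1, 79 in CXCL1 and 99 in IL32. Of the 27305 promoters searched, 3.07% held ISRE, 6.78% GAS and 1.73% kB. Over the 10180 matched tested genes these shares were 2.27%, 5.47% and 1.98%. Promoters were matched for 1434 of the 2013 genes called higher, of which 3.28% held ISRE, 4.88% GAS and 1.95% kB, and for 2056 of the 2827 genes called lower, of which 2.14%, 5.25% and 1.80% held them in the same order. ISRE stood in 16 of the 30 matched antiviral genes and in 5 of the 12 matched MHC class I genes. The kB motif stood in 4 of the 10 matched chemokine genes. A match is a description of letters and not a binding site.

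Of 18 tested interleukins and colony-stimulating factors 14 were higher and 2 lower, with a median log2 fold change of 4.28, and 6 of the 18 passed the filter only through HaCaT_sh+cyto. IL1B, which encodes IL-1β, was at 82.2, 86.2 and 88.8 CPM in HaCaT_sh+cyto, against 8.14, 7.96 and 9.60 CPM in HaCaT_sh (log2 fold change 3.32, SE 0.0859, adjusted p = 2.68e-10). IL36G, which encodes an IL-36 cytokine of psoriatic epidermis, was at 11.5, 9.81 and 12.6 CPM in HaCaT_sh+cyto, against 0.0543, 0.416 and 0.230 CPM in HaCaT_sh (log2 fold change 5.59, SE 0.307, adjusted p = 4.34e-08, and log2 fold change 6.26 without HaCaT_sh replicate 2). IL23A, which encodes the p19 chain of IL-23, was at 15.9, 16.05 and 34.1 CPM in HaCaT_sh+cyto, against 0.543, 0.237 and 0.575 CPM in HaCaT_sh (log2 fold change 5.57, SE 0.444, adjusted p = 7.31e-07). In all 3 the lowest stimulated library was far above the highest unstimulated one. CSF2, which encodes GM-CSF, was at 6.43, 7.29 and 3.75 CPM in HaCaT_sh+cyto with no count in HaCaT_sh and was at least 102-fold higher. CSF3, which encodes G-CSF, was at 3.56, 3.32 and 2.05 CPM in HaCaT_sh+cyto, again with no count in HaCaT_sh, and was at least 52.3-fold higher.

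Members of the IL-1 family sit in 1 cluster on chromosome 2, and all 6 of its tested genes were higher, with a median log2 fold change of 4.09. Besides IL1B and IL36G these were IL1A (4.35), IL36B, IL36RN (3.83), which encodes the IL-36 antagonist, and IL1RN (1.63), which encodes the IL-1 antagonist. LIF (log2 fold change 4.31, SE 0.0982, adjusted p = 1.44e-10), CLCF1 (log2 fold change 4.25, SE 0.126, adjusted p = 6.44e-10) and IL32 (log2 fold change 5.82, SE 0.186, adjusted p = 1.05e-09) rose too. IL15, which supports T and NK cells, was at 2.62, 1.46 and 3.41 CPM in HaCaT_sh+cyto, against 9.88, 12.6 and 11.1 CPM in HaCaT_sh (log2 fold change −2.13, SE 0.224, adjusted p = 6.47e-06), and IL7 (−1.68) was also lower.

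**Figure D2:**
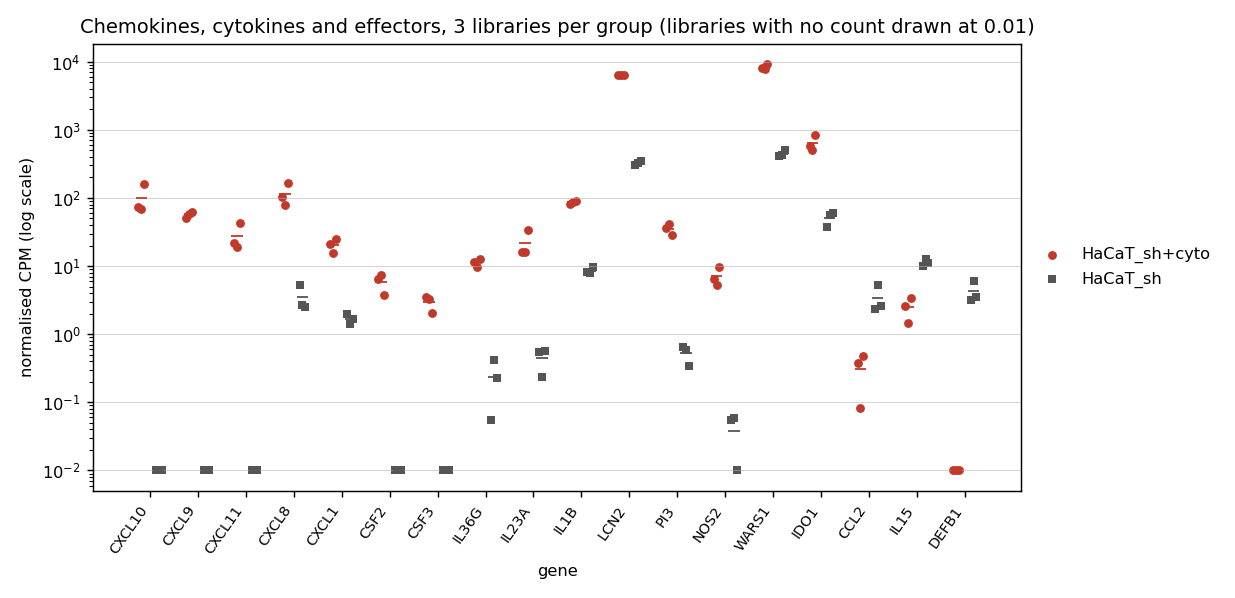
Normalised CPM on a log axis for 18 genes of inflammation, with the 3 HaCaT_sh+cyto libraries (circles) left of the 3 HaCaT_sh libraries (squares) and a bar at each group's mean. Libraries with no count are drawn at 0.01. CXCL10, CXCL9, CXCL11, CSF2 and CSF3 have counts only in HaCaT_sh+cyto, and CCL2, IL15 and DEFB1 run the other way.

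Interferon-stimulated antiviral genes rose in part. Of 37 tested genes 17 were higher and 2 lower, with a median log2 fold change of 0.90. Without HaCaT_sh+cyto replicate 3, or with library size alone, 4 were lower. RSAD2, which encodes viperin, was at 142, 132 and 141 CPM in HaCaT_sh+cyto, against 9.39, 12.5 and 12.01 CPM in HaCaT_sh (log2 fold change 3.62, SE 0.0972, adjusted p = 3.28e-10). IFI27, an interferon-induced membrane protein, was at 36.6, 35.3 and 28.3 CPM in HaCaT_sh+cyto, against 1.36, 1.54 and 1.26 CPM in HaCaT_sh (log2 fold change 4.58, SE 0.157, adjusted p = 1.59e-09), and IFI6 was at 17.3, 13.3 and 14.7 CPM in HaCaT_sh+cyto, against 1.79, 1.42 and 2.07 CPM in HaCaT_sh (log2 fold change 3.10, SE 0.173, adjusted p = 4.94e-08). IFITM2 moved the other way, at 23.4, 21.6 and 26.1 CPM in HaCaT_sh+cyto, against 78.1, 84.5 and 94.1 CPM in HaCaT_sh (log2 fold change −1.85, SE 0.0929, adjusted p = 2.21e-08), and IFITM1 fell too (log2 fold change −1.20). The guanylate-binding proteins were split. GBP5, an inflammasome-linked GTPase, was at 276, 261 and 373 CPM in HaCaT_sh+cyto, against 0.760, 0.712 and 0.345 CPM in HaCaT_sh (log2 fold change 8.95, SE 0.225, adjusted p = 2.35e-10), and GBP1 was at 127, 129.9 and 151 CPM in HaCaT_sh+cyto, against 17.7, 21.1 and 20.00 CPM in HaCaT_sh (log2 fold change 2.80, SE 0.0928, adjusted p = 1.28e-09). These genes are paralogs, among which reads can be split. Of 13 tested guanylate-binding and APOL genes 5 were higher and 2 lower (2 of the 5 having passed only through HaCaT_sh+cyto and 1 of the 2 only through HaCaT_sh), and GBP2 was among the lower (log2 fold change −1.63), as was APOL4 (−3.66).

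Antigen presentation genes rose in part, in the class I and the class II pathway. NLRC5, the transactivator of class I genes, was at 140.2, 129 and 177 CPM in HaCaT_sh+cyto, against 22.9, 22.8 and 24.9 CPM in HaCaT_sh (log2 fold change 2.66, SE 0.115, adjusted p = 7.74e-09). TAP1, the peptide transporter subunit, was at 777, 712 and 1042 CPM in HaCaT_sh+cyto, against 179, 191 and 211 CPM in HaCaT_sh (log2 fold change 2.12, SE 0.131, adjusted p = 1.03e-07), and HLA-B was at 3062, 3028 and 3339.8 CPM in HaCaT_sh+cyto, against 940.3, 1084 and 1188 CPM in HaCaT_sh (log2 fold change 1.55, SE 0.0897, adjusted p = 6.22e-08). Of 16 tested class I genes 6 were higher and 2 lower, and the 2 lower ones were the peptide editors TAPBP (−1.48) and TAPBPL (−1.48). Of the 6 inducible proteasome subunits 0 were called by edgeR and 0 by DESeq2. In edgeR 2 were higher and 3 lower at an adjusted p below 0.01, but all by less than 2-fold. PSMB10 (−0.90) passed with library size alone (−1.11) and without HaCaT_sh+cyto replicate 3 (−1.15). Of 31 constitutive subunits 24 were higher and 1 lower at an adjusted p below 0.01 in edgeR, whatever the size of the change. The median log2 fold change of the 31 was 0.59. Only PSMD2 (1.18), PSMD14 (1.08) and PSME3 (1.05) were called higher, and each lost its call with library size alone. PSME3 also lost it without HaCaT_sh+cyto replicate 2 (0.99). In class II, 8 of 14 tested genes were higher and 6 were not called, and 2 of the 8 had passed only through HaCaT_sh+cyto. CD74, the invariant chain, was at 205, 263 and 165 CPM in HaCaT_sh+cyto, against 21.5, 34.8 and 36.1 CPM in HaCaT_sh (log2 fold change 2.78, SE 0.205, adjusted p = 4.00e-07). HLA-DRA was at 12.5, 15.2 and 10.8 CPM in HaCaT_sh+cyto, against 2.77, 3.44 and 3.56 CPM in HaCaT_sh (log2 fold change 1.97, SE 0.170, adjusted p = 1.34e-06), and HLA-DRB1 was at 21.1, 25.6 and 17.9 CPM in HaCaT_sh+cyto, against 3.75, 6.83 and 5.98 CPM in HaCaT_sh (log2 fold change 1.97, SE 0.200, adjusted p = 4.97e-06). HLA-DQA1 had 117 counts in HaCaT_sh+cyto, against 2 in HaCaT_sh (71.6-fold, with a counting interval of 19.4 to 598). HLA genes are polymorphic and similar to each other, so reads can be split among them. CIITA, the class II transactivator, had a log2 fold change of 0.36 and was not called.

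Antimicrobial proteins went in both directions, with 6 of 12 tested higher and 5 lower, 3 of the lower ones having passed only through HaCaT_sh. LCN2, the iron-sequestering lipocalin 2, was at 6415, 6444 and 6445 CPM in HaCaT_sh+cyto, against 300.4, 326 and 351 CPM in HaCaT_sh (log2 fold change 4.30, SE 0.0808, adjusted p = 4.83e-11), which made it one of the most abundant transcripts of stimulated libraries. PI3, which encodes elafin, was at 35.8, 40.8 and 28.1 CPM in HaCaT_sh+cyto, against 0.651, 0.594 and 0.345 CPM in HaCaT_sh (log2 fold change 6.01, SE 0.227, adjusted p = 3.02e-09), and RNASE7, a skin antimicrobial ribonuclease, was at 96.1, 96.4 and 101 CPM in HaCaT_sh+cyto, against 1.25, 1.72 and 1.67 CPM in HaCaT_sh (log2 fold change 5.98, SE 0.104, adjusted p = 3.72e-11). S100A8, a calprotectin subunit, was at 2.12, 2.19 and 2.18 CPM in HaCaT_sh+cyto, against 2.01, 1.66 and 1.84 CPM in HaCaT_sh and was not called (log2 fold change 0.23). S100A9, its partner (−2.09), S100A7, psoriasin (−1.60), and the peptidoglycan recognition proteins PGLYRP3 (−5.51, and −6.18 without HaCaT_sh+cyto replicate 3) and PGLYRP4 (−4.41) fell, and DEFB1, β-defensin 1, had no count in HaCaT_sh+cyto, against 3.20, 6.06 and 3.51 CPM in HaCaT_sh, at least 61.00-fold lower.

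Complement genes were divided. Of 15 tested complement genes 6 were higher (40%) and 5 lower (33.3%). Of the 6 higher ones 1 had passed the filter only through HaCaT_sh+cyto, and of the 5 lower ones 2 only through HaCaT_sh. C1S, a protease of the C1 complex, was at 460.5, 484 and 409 CPM in HaCaT_sh+cyto, against 18.1, 20.2 and 18.3 CPM in HaCaT_sh (log2 fold change 4.58, SE 0.0891, adjusted p = 5.93e-11), and SERPING1, the C1 inhibitor, was at 59.00, 52.8 and 70.8 CPM in HaCaT_sh+cyto, against 0.543, 0.534 and 0.517 CPM in HaCaT_sh (log2 fold change 6.82, SE 0.179, adjusted p = 2.90e-10). Of 19 tested T-cell ligands and adhesion molecules 5 were higher (26.3%, beside 14.9% of all genes) and 4 lower (21.1%, beside 21.0%). ICAM1, the ligand of LFA-1, was at 128, 109 and 175 CPM in HaCaT_sh+cyto, against 8.68, 9.14 and 9.77 CPM in HaCaT_sh (log2 fold change 3.90, SE 0.171, adjusted p = 8.30e-09), and CD274, which encodes PD-L1, had a log2 fold change of 3.10, with PDCD1LG2, which encodes PD-L2, at 12.2, 13.9 and 12.3 CPM in HaCaT_sh+cyto, against 0.0543, 0 and 0.345 CPM in HaCaT_sh (log2 fold change 6.51, SE 0.367, adjusted p = 5.18e-08, and log2 fold change 8.46 without HaCaT_sh replicate 3). CD86, a costimulatory ligand (−5.06), and VTCN1 (−2.18) fell. Of 17 TNF ligand and receptor genes 7 were higher, among them the TWEAK receptor TNFRSF12A (2.56) and the TRAIL receptors TNFRSF10A (1.93), TNFRSF10B (1.76) and TNFRSF10D (3.27), and 5 were lower, among them the ligand TRAIL itself, TNFSF10 (−4.22).

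Some enzymes that act on tryptophan and arginine rose. IDO1, which breaks tryptophan down, was at 578, 504 and 835 CPM in HaCaT_sh+cyto, against 37.1, 56.8 and 59.8 CPM in HaCaT_sh (log2 fold change 3.64, SE 0.217, adjusted p = 7.87e-08). WARS1, the tryptophanyl-tRNA synthetase that IFNγ induces, was at 8027, 7837 and 9152 CPM in HaCaT_sh+cyto, against 410.1, 428 and 506 CPM in HaCaT_sh (log2 fold change 4.22, SE 0.107, adjusted p = 2.35e-10), one of the highest levels of any called gene. KYNU, kynureninase of the same pathway, was at 7.80, 6.97 and 4.16 CPM in HaCaT_sh+cyto, against 0.217, 0.237 and 0.345 CPM in HaCaT_sh (log2 fold change 4.53, SE 0.358, adjusted p = 6.91e-07). Of 9 tested genes of tryptophan and NAD metabolism 4 were higher, including NAMPT (1.46), which makes NAD precursor, and 1 was lower, NNMT (−2.88), which methylates nicotinamide. Of 13 nitric oxide and oxidase genes 5 were higher, 2 of them having passed the filter only through HaCaT_sh+cyto. NOS2, the inducible nitric oxide synthase, had 313 counts in HaCaT_sh+cyto, against 2 in HaCaT_sh (192-fold, with a counting interval of 52.6 to 1589). ARG2, which shares arginine as substrate, was at 21.3, 20.02 and 30.8 CPM in HaCaT_sh+cyto, against 3.47, 2.20 and 3.10 CPM in HaCaT_sh (log2 fold change 3.03, SE 0.211, adjusted p = 2.49e-07).

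Of the 48 lists, the genes of mitosis had the lowest median. All 53 listed G2/M, spindle and cytokinesis genes were tested, and 50 of them were lower, with a median log2 fold change of −4.32. Of the 50, 6 had passed the filter only through HaCaT_sh, and over the 47 genes that passed in both groups the median was −3.93, again the lowest of the lists. CDK1, the mitotic kinase, was at 2.56, 2.92 and 2.93 CPM in HaCaT_sh+cyto, against 124, 120.5 and 110.2 CPM in HaCaT_sh (log2 fold change −5.40, SE 0.0962, adjusted p = 3.81e-11). TOP2A, topoisomerase IIα, was at 7.24, 10.9 and 7.44 CPM in HaCaT_sh+cyto, against 566, 525 and 499 CPM in HaCaT_sh (log2 fold change −5.97, SE 0.134, adjusted p = 1.32e-10), and KIF11, the spindle motor Eg5, was at 4.37, 5.84 and 5.05 CPM in HaCaT_sh+cyto, against 122, 115 and 108 CPM in HaCaT_sh (log2 fold change −4.51, SE 0.102, adjusted p = 1.35e-10). In each of these all 3 stimulated libraries lay far below the lowest unstimulated one.

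The fall reached further members of the group, with log2 fold changes of −8.32 for the cytokinesis kinesin KIF20A, −5.11 for the contractile ring protein ANLN, −4.32 for the spindle checkpoint kinase TTK and −4.49 for the transcription factor FOXM1. The 3 that were not called were BUB3 (−0.68), CDC25B (−0.67) and CDC25A (0.83), the phosphatase of the G1 to S step. In bulk libraries, fewer dividing cells and less RNA of these genes per cell cannot be told apart.

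Promoter windows of 5 of these genes are shown because they hold both motifs known from promoters of mitotic genes. They too were chosen after the values were seen. Capitals mark CHR (TTTGAA) and CCAAT on either strand, by the same rule as above.

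CDK1: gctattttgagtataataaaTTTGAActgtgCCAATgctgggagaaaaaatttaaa
PLK1: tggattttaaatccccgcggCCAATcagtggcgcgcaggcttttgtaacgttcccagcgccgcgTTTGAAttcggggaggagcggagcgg
CCNB2: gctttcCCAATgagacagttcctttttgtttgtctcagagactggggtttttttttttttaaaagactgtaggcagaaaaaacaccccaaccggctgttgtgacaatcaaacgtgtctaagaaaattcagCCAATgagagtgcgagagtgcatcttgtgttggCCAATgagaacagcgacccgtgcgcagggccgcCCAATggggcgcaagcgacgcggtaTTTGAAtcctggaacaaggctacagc
CDC20: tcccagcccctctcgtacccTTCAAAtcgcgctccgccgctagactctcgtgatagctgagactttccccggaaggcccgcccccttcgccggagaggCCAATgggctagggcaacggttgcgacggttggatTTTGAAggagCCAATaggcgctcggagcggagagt
TOP2A: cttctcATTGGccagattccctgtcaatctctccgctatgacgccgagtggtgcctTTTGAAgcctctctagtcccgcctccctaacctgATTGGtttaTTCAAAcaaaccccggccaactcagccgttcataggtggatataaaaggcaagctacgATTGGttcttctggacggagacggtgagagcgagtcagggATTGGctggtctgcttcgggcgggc

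The windows lie at chr10:60778150-60778205 for CDK1, chr16:23678796-23678885 for PLK1, chr15:59104896-59105142 for CCNB2, chr1:43358783-43358950 for CDC20 and chr17:40417925-40418146 for TOP2A. Of 44 matched G2/M promoters 21 held CHR (47.7%) and 34 held CCAAT (77.3%). Over the 10180 matched tested genes these shares were 8.24% and 35.4%, and over all promoters searched 13.6% and 33.0%. Of 42 matched DNA replication genes 1 held CHR and 21 CCAAT.

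Fewer of the DNA replication genes were called. Of 48 tested genes 30 were lower, with a median log2 fold change of −1.29. TK1, thymidine kinase, was at 7.99, 7.70 and 9.96 CPM in HaCaT_sh+cyto, against 156, 118 and 122 CPM in HaCaT_sh (log2 fold change −3.94, SE 0.137, adjusted p = 1.73e-09), and LIG1, the replicative DNA ligase, was at 8.30, 8.92 and 10.7 CPM in HaCaT_sh+cyto, against 82.4, 75.6 and 71.3 CPM in HaCaT_sh (log2 fold change −3.04, SE 0.102, adjusted p = 1.40e-09). The helicase subunits MCM2 (0.17), MCM4 (−0.14) and MCM6 (0.14) were not called, and neither was MCM7 (−0.62). Among 20 tested G1 cyclins and CDK inhibitors 4 were higher and 8 lower. CDKN1A, which encodes p21, was at 506, 508 and 489.8 CPM in HaCaT_sh+cyto, against 90.7, 101 and 110.2 CPM in HaCaT_sh (log2 fold change 2.32, SE 0.0768, adjusted p = 1.28e-09). CCND1 (1.64), CCNE1 (1.80) and MYC (1.81) also rose. CDKN2C, which encodes p18INK4c, had 1 count in HaCaT_sh+cyto, against 1377 in HaCaT_sh (1124-fold, with a counting interval of 201 to 44447). Its fitted log2 fold change was −11.70 without HaCaT_sh+cyto replicate 1, in place of −9.71.

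Among p53 targets 10 of 27 were higher and 9 lower, against 8 and 10 with library size alone and 8 and 4 in a test against a 2-fold change. AEN, a p53-induced nuclease, was at 49.7, 53.7 and 50.8 CPM in HaCaT_sh+cyto, against 7.11, 7.18 and 7.70 CPM in HaCaT_sh (log2 fold change 2.81, SE 0.0815, adjusted p = 5.47e-10), and SESN2, a stress-induced sestrin, was at 279, 284 and 209.8 CPM in HaCaT_sh+cyto, against 22.7, 23.2 and 25.4 CPM in HaCaT_sh (log2 fold change 3.44, SE 0.120, adjusted p = 1.80e-09). DDB2, a DNA repair factor, was at 10.5, 11.6 and 15.6 CPM in HaCaT_sh+cyto, against 110.3, 117 and 118 CPM in HaCaT_sh (log2 fold change −3.19, SE 0.117, adjusted p = 2.45e-09). Of 34 caspase, BCL2 and death genes 6 were higher (17.6%) and 7 lower (20.6%), shares close to those of all genes (14.9% and 21.0%). The BH3-only gene PMAIP1, which encodes NOXA, rose (2.05), as did the apoptosis inhibitors CFLAR (1.79) and BCL2L1 (1.22) and the initiator caspase CASP8 (1.30), and BMF fell (−3.05), with BIRC5, survivin, also a mitotic gene (−5.18).

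**Figure D3:**
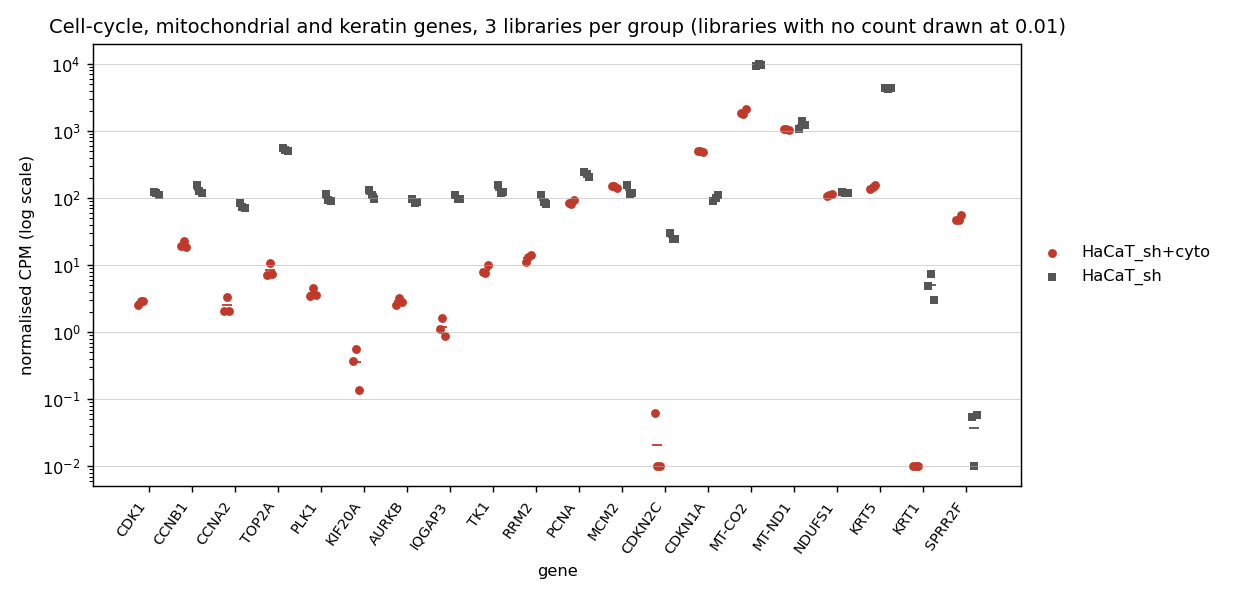
Normalised CPM on a log axis for 20 cell-cycle, mitochondrial and keratin genes, with the 3 HaCaT_sh+cyto libraries (circles) left of the 3 HaCaT_sh libraries (squares) and a bar at each group's mean. Libraries with no count are drawn at 0.01. The 8 division genes on the left lie well below HaCaT_sh, while MCM2, MT-ND1 and NDUFS1 lie near it, and CDKN1A and SPRR2F are higher.

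Epidermal genes were called in both directions. Among 35 tested differentiation and cornified envelope genes 18 were higher and 7 lower. Of the 18 higher ones 7 passed the filter only through HaCaT_sh+cyto, and of the 7 lower ones 3 only through HaCaT_sh. SPRR2A, a small proline-rich envelope precursor, was at 248, 252 and 267 CPM in HaCaT_sh+cyto, against 0.977, 0.594 and 0.862 CPM in HaCaT_sh (log2 fold change 8.28, SE 0.114, adjusted p = 2.91e-11). SPRR2E was at 164, 171 and 188 CPM in HaCaT_sh+cyto, against 0.271, 0.178 and 0.0575 CPM in HaCaT_sh (log2 fold change 9.93, SE 0.166, adjusted p = 2.91e-11) and SPRR2D was at 87.96, 102 and 76.8 CPM in HaCaT_sh+cyto, against 0.271, 0.237 and 0.172 CPM in HaCaT_sh (log2 fold change 8.56, SE 0.198, adjusted p = 1.48e-10). The SPRR2 genes are near-identical copies, and their separate values are uncertain. IVL, involucrin, was at 15.3, 14.3 and 15.6 CPM in HaCaT_sh+cyto, against 235, 256 and 209 CPM in HaCaT_sh (log2 fold change −3.95, SE 0.0916, adjusted p = 1.48e-10). KRT1, the suprabasal keratin, had no count in HaCaT_sh+cyto, against 4.89, 7.42 and 2.99 CPM in HaCaT_sh, at least 73.1-fold lower, and KRT10, its partner, fell by 1.48 on the log2 scale. ABCA12, the lipid transporter of lamellar granules, was at 83.2, 77.8 and 71.9 CPM in HaCaT_sh+cyto, against 4.07, 4.39 and 3.91 CPM in HaCaT_sh (log2 fold change 4.23, SE 0.0951, adjusted p = 1.35e-10).

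Keratin genes were split too. KRT5, the basal keratin, was at 138, 148 and 159 CPM in HaCaT_sh+cyto, against 4426, 4191 and 4336 CPM in HaCaT_sh (log2 fold change −4.87, SE 0.0813, adjusted p = 2.91e-11), and KRT4, a mucosal keratin, was at 1.19, 1.78 and 1.71 CPM in HaCaT_sh+cyto, against 1873, 1784 and 1501 CPM in HaCaT_sh (log2 fold change −10.12, SE 0.153, adjusted p = 2.91e-11). KRT14, the partner of KRT5, was not called (−0.67). Among 13 tested keratins of activated and simple epithelium 9 were higher and 1 lower, 2 of the higher ones having passed the filter only through HaCaT_sh+cyto. KRT17, a keratin of activated and psoriatic epidermis, was at 351, 328 and 439 CPM in HaCaT_sh+cyto, against 102, 82.5 and 93.5 CPM in HaCaT_sh (log2 fold change 2.01, SE 0.116, adjusted p = 6.12e-08), KRT6B was at 7.62, 7.29 and 6.96 CPM in HaCaT_sh+cyto, against 0.651, 0.534 and 0.345 CPM in HaCaT_sh (log2 fold change 3.81, SE 0.218, adjusted p = 5.87e-08), and KRT16 (1.74) and KRT18 (2.19) also rose. Keratins 6A and 6B are close copies. The hair keratin KRT33B was at 17.1 ± 0.389 CPM (SD, n = 3) in HaCaT_sh+cyto with no count in HaCaT_sh, at least 300.4-fold higher.

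Basement membrane and junction genes were partly higher. Of 18 basal keratinocyte genes 6 were higher and 2 lower, the median being 0.11 with TMM and −0.10 with library size alone. With library size alone, or in a test against a 2-fold change, 3 were higher. The laminin chains LAMA3 and LAMB3, of the epidermal basement membrane, rose, LAMA3 at 5513, 5137 and 5048 CPM in HaCaT_sh+cyto, against 242, 246 and 251 CPM in HaCaT_sh (log2 fold change 4.41, SE 0.0725, adjusted p = 2.91e-11) and LAMB3 at 5675, 5532 and 5928 CPM in HaCaT_sh+cyto, against 1069, 1078 and 1177 CPM in HaCaT_sh (log2 fold change 2.37, SE 0.0700, adjusted p = 6.26e-10). TP63, the master regulator of basal cells, fell (−1.28). Of 12 desmosome genes 4 were higher, DSG3 (1.84), DSC2 (1.39), DSP (1.32) and JUP (1.19), of which JUP lost its call with library size alone (0.98). Of 19 tight junction genes 10 were higher and 3 lower with TMM, and 6 were higher with library size alone, led by CLDN4 (3.55) and OCLN (2.37), whereas CLDN8 fell to 0.187, 0.243 and 0.273 CPM in HaCaT_sh+cyto, against 47.5, 57.2 and 46.96 CPM in HaCaT_sh. Of 23 kallikreins and serpins 9 were higher and 5 lower, 2 of the lower ones having passed the filter only through HaCaT_sh. SERPINB2, the plasminogen activator inhibitor 2, was at 1075, 1068 and 1208 CPM in HaCaT_sh+cyto, against 84.4, 75.7 and 77.2 CPM in HaCaT_sh (log2 fold change 3.82, SE 0.0801, adjusted p = 9.27e-11), and KLK6 (3.88), KLK10 (2.62), KLK5 (2.41) and KLK7 (2.21) rose, while KLK11 (−3.37) and KLK13 (−3.72) fell.

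Of 34 tested collagens and matrix proteins 16 were lower and 6 higher, with a median log2 fold change of −0.96. Of the 16 lower ones 4 had passed the filter only through HaCaT_sh, where they were high, and 12 had not. SPARC, a collagen-binding matricellular protein, was at 1.69, 1.78 and 2.18 CPM in HaCaT_sh+cyto, against 109, 121 and 119 CPM in HaCaT_sh (log2 fold change −5.94, SE 0.105, adjusted p = 3.81e-11), and MATN2, a filament-forming matrix protein, was at 10.9, 10.8 and 13.7 CPM in HaCaT_sh+cyto, against 159, 163 and 158 CPM in HaCaT_sh (log2 fold change −3.76, SE 0.0898, adjusted p = 1.68e-10). FN1, fibronectin, was at 189.7, 162 and 187 CPM in HaCaT_sh+cyto, against 12.1, 10.7 and 12.1 CPM in HaCaT_sh (log2 fold change 3.95, SE 0.0891, adjusted p = 1.36e-10), and TNC, tenascin C, rose as well (4.18). DCN, the proteoglycan decorin, had no count in HaCaT_sh+cyto, against 23.2, 34.02 and 17.8 CPM in HaCaT_sh, at least 358-fold lower. DCN, LUM and COL1A1 are also markers of fibroblasts, and all 3 fell. The other 5 of the 8 fibroblast markers stayed below the filter, with group means of at most 0.112 CPM. Whether other cells contributed the transcripts of DCN, LUM and COL1A1 was not tested. Of 26 proteases and inhibitors 10 were higher and 7 lower. Of the 10 higher ones 2 had passed the filter only through HaCaT_sh+cyto, and of the 7 lower ones 2 only through HaCaT_sh. PLAUR, the urokinase receptor, was at 375, 353 and 453 CPM in HaCaT_sh+cyto, against 15.8, 13.2 and 17.8 CPM in HaCaT_sh (log2 fold change 4.65, SE 0.130, adjusted p = 4.20e-10), and MMP9 had 129 counts in HaCaT_sh+cyto, against 1 in HaCaT_sh (158-fold, with a counting interval of 27.9 to 6287). MMP13, collagenase 3, was at 0.0624, 0 and 0.205 CPM in HaCaT_sh+cyto, against 124, 151 and 123 CPM in HaCaT_sh (log2 fold change −10.36, SE 0.238, adjusted p = 1.47e-10, and log2 fold change −11.60 without HaCaT_sh+cyto replicate 3). Of 14 integrins 4 were higher, including the fibronectin receptor chain ITGA5 at 113, 109 and 100.3 CPM in HaCaT_sh+cyto, against 4.61, 4.69 and 3.45 CPM in HaCaT_sh (log2 fold change 4.66, SE 0.107, adjusted p = 1.48e-10), and 2 were lower.

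Several ligands of the EGF receptor rose. Of 14 tested EGF family genes 6 were higher and 4 lower, 3 of the lower ones having passed only through HaCaT_sh. HBEGF, the heparin-binding EGF-like ligand, was at 120.4, 140.5 and 88.3 CPM in HaCaT_sh+cyto, against 7.44, 8.43 and 9.02 CPM in HaCaT_sh (log2 fold change 3.81, SE 0.169, adjusted p = 9.41e-09), and TGFA, EREG and AREG had log2 fold changes of 2.93, 4.23 and 3.83. NRG2 (−5.60) and NRG4 (−5.67), neuregulins, fell. Of 27 tested ERK feedback and early response genes 19 were higher and 1 lower, and the lower one was not called without HaCaT_sh+cyto replicate 2 or HaCaT_sh replicate 2. Besides FOSL1 these included PHLDA1 (3.31), IER3 (2.78), the phosphatases DUSP4 (3.71), DUSP5 (3.19) and DUSP6 (1.68), and the inhibitor SPRY4 (3.86). EGR1, an early ERK target (−0.32), was not called.

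Of the Wnt and Notch genes more were called lower than higher. AXIN2, a Wnt target, had 2 counts in HaCaT_sh+cyto, against 131 in HaCaT_sh (53.5-fold, with a counting interval of 14.5 to 446), and of 29 tested Wnt genes 11 were lower and 3 higher. Of the 11 lower ones 2 had passed the filter only through HaCaT_sh. The ligand WNT10A was at 34.3, 33.1 and 34.1 CPM in HaCaT_sh+cyto, against 216, 214 and 219.7 CPM in HaCaT_sh (log2 fold change −2.68, SE 0.0582, adjusted p = 1.16e-10). Of 22 Notch genes 10 were lower and 2 higher, and 5 of the 10 lower ones had passed only through HaCaT_sh. The median log2 fold change of the Notch genes was −0.54, and 0.09 over the 16 that passed in both groups. NOTCH3, whose own log2 fold change was −2.87, the ligands JAG1 (−1.40) and JAG2 (−1.69), and the targets HES4 (−1.92) and HEY1 (−3.06) fell, while DLL4 rose (4.93). Of 33 TGF-β, activin and BMP genes 7 were higher (21.2%, beside 14.9% of all genes) and 8 lower (24.2%, beside 21.0%). INHBA, the activin A subunit, was at 324, 323 and 248 CPM in HaCaT_sh+cyto, against 4.07, 3.62 and 4.08 CPM in HaCaT_sh (log2 fold change 6.24, SE 0.136, adjusted p = 1.17e-10), and its antagonist FST rose (3.60). The BMP targets ID1 (−3.70), ID2 (−4.11), ID3 (−6.67) and ID4 (−2.80) all fell, and ID3 was at 4.31, 3.32 and 5.80 CPM in HaCaT_sh+cyto, against 463, 449.5 and 472 CPM in HaCaT_sh.

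Most mitochondrially encoded genes were called lower, while most nuclear respiratory genes were lower by less than 2-fold and so not called. Of 13 mitochondrial genes 10 were lower, with a median log2 fold change of −1.62. MT-CO2, a cytochrome c oxidase subunit, was at 1877, 1789 and 2125 CPM in HaCaT_sh+cyto, against 9292, 9931 and 9625 CPM in HaCaT_sh (log2 fold change −2.32, SE 0.0811, adjusted p = 1.82e-09). MT-CYB, cytochrome b, was at 1104, 1109 and 1146 CPM in HaCaT_sh+cyto, against 4529, 5082 and 4482 CPM in HaCaT_sh (log2 fold change −2.07, SE 0.0715, adjusted p = 1.68e-09), and MT-ND4, a complex I subunit, was at 3149, 3152 and 4006 CPM in HaCaT_sh+cyto, against 10248, 11512 and 11130.0 CPM in HaCaT_sh (log2 fold change −1.67, SE 0.102, adjusted p = 9.33e-08). MT-ND1 (−0.21), MT-ND2 (−0.83) and MT-CO1 (−0.97) were not called. MT-ND2 and MT-CO1 passed with library size alone (−1.04 and −1.18), and MT-CO1 also without HaCaT_sh replicate 1 (−1.01) or 3 (−1.01) or HaCaT_sh+cyto replicate 3 (−1.04). Of 71 nuclear-encoded subunits 8 were called lower, with a median of −0.44. At an adjusted p below 0.01 in edgeR, whatever the size of the change, 53 of the 71 were lower and 3 higher. With library size alone 16 were called lower, and in a test against a 2-fold change 3 were. SDHA was at 79.5, 79.8 and 91.6 CPM in HaCaT_sh+cyto, against 265, 260.4 and 266 CPM in HaCaT_sh (log2 fold change −1.66, SE 0.0688, adjusted p = 5.76e-09). Of 76 cytosolic ribosomal protein genes 1 was called higher, RPS10, and 1 lower, RPS28, with a median of −0.29. At an adjusted p below 0.01 in edgeR, whatever the size of the change, 45 of the 76 were lower and 2 higher. With library size alone 5 were called lower, and RPS10 was not called in a test against a 2-fold change (adjusted p = 0.0762). These have many pseudogene copies.

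Of 30 ATF4 and unfolded protein response genes 17 were higher, with a median log2 fold change of 1.04. CHAC1, which degrades glutathione, was at 211, 198 and 165 CPM in HaCaT_sh+cyto, against 2.17, 1.54 and 2.93 CPM in HaCaT_sh (log2 fold change 6.42, SE 0.162, adjusted p = 2.35e-10), ASNS, asparagine synthetase, was at 312, 337 and 277 CPM in HaCaT_sh+cyto, against 47.7, 35.1 and 44.1 CPM in HaCaT_sh (log2 fold change 2.87, SE 0.114, adjusted p = 4.35e-09), and the chaperone HSPA5 (BiP) was at 2138, 2283 and 2119 CPM in HaCaT_sh+cyto, against 551, 599 and 629 CPM in HaCaT_sh (log2 fold change 1.88, SE 0.0709, adjusted p = 2.98e-09). Of 34 NRF2 and glutathione genes 11 were higher and 5 lower. TXNRD1, thioredoxin reductase, was at 1026, 1120.2 and 763 CPM in HaCaT_sh+cyto, against 105, 98.9 and 99.7 CPM in HaCaT_sh (log2 fold change 3.26, SE 0.129, adjusted p = 4.25e-09), HMOX1 rose (3.60) and the ferritin chains FTL (3.06) and FTH1 (1.75) rose, both with many processed pseudogenes, while GPX2 fell (−3.18).

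Of 14 metallothionein and zinc transporter genes 4 were higher and 6 lower, and the metal-binding metallothioneins MT1X, MT1L, MT1F, MT1E and MT2A were all among the lower (−2.37 to −1.77). They are close copies, so counts can be shared among them. The zinc importers SLC39A14 (1.72) and SLC39A4 (2.21) rose. Of 28 cholesterol genes 2 were higher (7.14%) and 4 lower (14.3%), both below the shares of all genes (14.9% and 21.0%). Neither of the 2 higher ones was called with library size alone. Of 37 fatty acid genes 3 were higher (8.11%) and 8 lower (21.6%, beside 21.0% of all genes), among them the β-oxidation genes ACADM (−2.04), HADHA (−1.56) and ACADVL (−1.11). Of 34 glycolysis and hypoxia genes 9 were higher and 3 lower, with VEGFA (3.01) and HK2 (2.63) among those that rose. Of 11 prostanoid genes 7 were lower and 1 higher. PTGS2 (COX-2) rose (4.01), and HPGD, the enzyme that inactivates prostaglandins, was at 2.75, 2.76 and 2.18 CPM in HaCaT_sh+cyto, against 72.6, 87.03 and 81.8 CPM in HaCaT_sh (log2 fold change −4.97, SE 0.119, adjusted p = 1.71e-10).

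**Figure D4:**
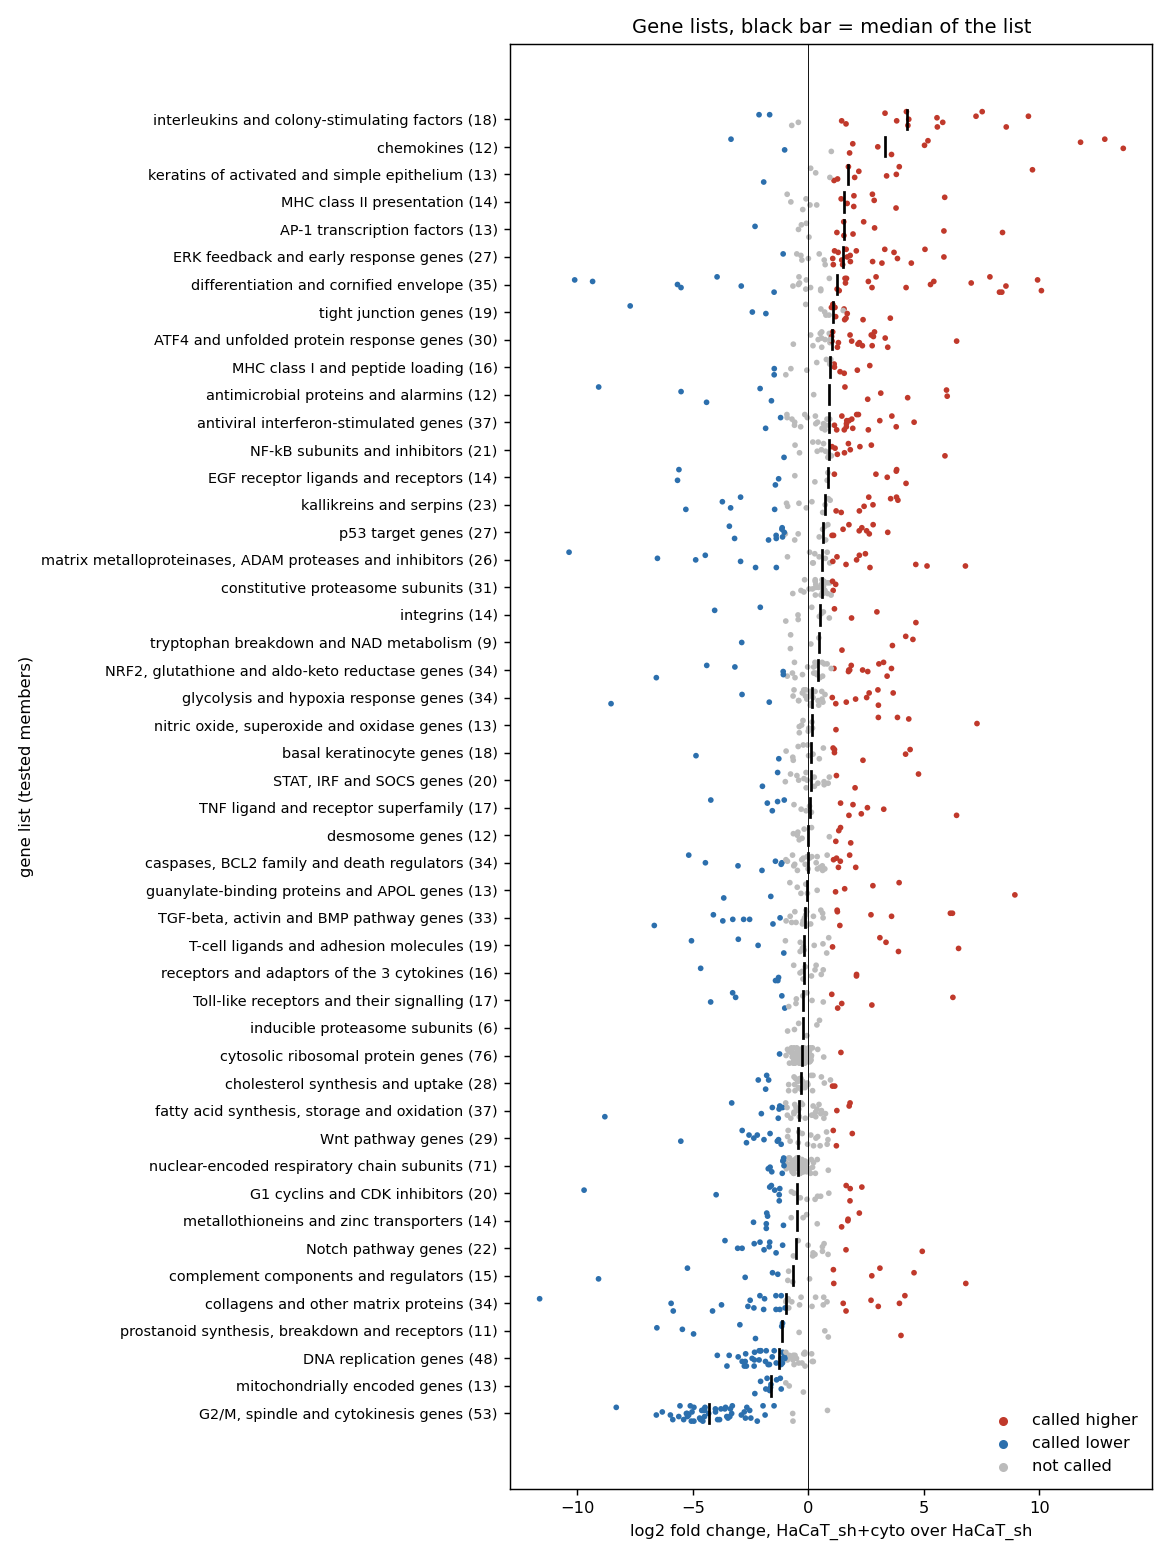
Log2 fold change, HaCaT_sh+cyto over HaCaT_sh, of each tested member of the 48 gene lists, ordered by the list median (black bar). Red points are members called higher, blue lower and grey not called. Interleukins and chemokines stand at the top, with medians of 4.28 and 3.31 (3.32 and 1.86 over the members that passed the filter in both groups), and the G2/M list, with a median of −4.32 (−3.93), stands at the bottom.

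The largest increases by fold among protein-coding genes with at least 5 CPM in a group were, besides the CXCR3 chemokines, RGS4, ESM1, PRR9, IGFN1, KRT33B, IL13RA2, KLHDC7B, NLRP10 and SPRR2F. RGS4, a regulator of G-protein signalling, was at 42.7, 41.9 and 31.3 CPM in HaCaT_sh+cyto with no count in HaCaT_sh, at least 678-fold higher. ESM1, the secreted proteoglycan endocan, was at 39.6, 44.4 and 20.3 CPM in HaCaT_sh+cyto with no count in HaCaT_sh, at least 610.1-fold higher. IL13RA2, the decoy receptor of IL-13, had 2319 counts in HaCaT_sh+cyto, against 1 in HaCaT_sh (2839.7-fold, with a counting interval of 509 to 112210.0). Without HaCaT_sh replicate 2 the fitted log2 fold change was 12.75 for IL13RA2, in place of 10.99, and 12.85 for IGFN1, in place of 11.10, and without HaCaT_sh replicate 3 that of PRR9 was 13.77, in place of 12.02. KLHDC7B was at 879, 819 and 711 CPM in HaCaT_sh+cyto, against 0.543, 0.950 and 0.230 CPM in HaCaT_sh (log2 fold change 10.44, SE 0.203, adjusted p = 5.93e-11).

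The largest decreases were GPR15LG, DCN, BPIFB1, MTUS2, ATP6V1B1, PIF1, MMP13, KRT4, TP73, CDKN2C, PSAPL1 and BCAS1. GPR15LG, a ligand of the receptor GPR15 made by epithelia, had no count in HaCaT_sh+cyto, against 23.5, 28.7 and 28.3 CPM in HaCaT_sh, at least 385-fold lower. PIF1, a DNA helicase, had no count in HaCaT_sh+cyto, against 13.7, 12.2 and 10.8 CPM in HaCaT_sh, at least 175-fold lower. TP73, a p53-family transcription factor, had no count in HaCaT_sh+cyto, against 6.73, 6.59 and 6.67 CPM in HaCaT_sh, at least 95.5-fold lower. BPIFB1 (at least 230.1-fold lower) and MTUS2 (at least 222-fold lower) also had no count with cytokines. The log2 fold change of ATP6V1B1, a proton pump subunit, was −10.77, and −11.72 without HaCaT_sh+cyto replicate 2. By counts, FTH1, WARS1, IGFBP3, LCN2 and LAMB3 were among the most abundant called increases, with FTH1 at 11969.5, 12369 and 11318 CPM in HaCaT_sh+cyto, against 3604, 3555 and 3413 CPM in HaCaT_sh and IGFBP3, an IGF-binding protein, at 7598, 6566 and 10554 CPM in HaCaT_sh+cyto, against 3057, 3286 and 2770.5 CPM in HaCaT_sh (log2 fold change 1.44, SE 0.151, adjusted p = 6.49e-06).

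Genes of a locus did not always move together. On chromosome 4 (GRCh37), 11 of 20 tested genes of the CXCL region were higher and 2 lower. In the epidermal differentiation complex on chromosome 1, 12 of 30 tested genes were higher and 8 lower, with SPRR2 members high and the S100 genes S100A4 (−2.93) and S100A6 (−2.27) low. In the MMP cluster on chromosome 11, MMP1 (2.47) and MMP10 (1.63) were higher and MMP7 (−4.46, and −5.48 without HaCaT_sh+cyto replicate 3), MMP12 and MMP13 lower. Long noncoding RNAs were called lower more often than higher. Of 904 tested lncRNA genes 134 were higher and 340 lower (37.6%), against 1750 higher and 2352 lower (19.8%) of 11888 protein-coding genes. Of all tested genes 851 passed the filter only through HaCaT_sh and 267 only through HaCaT_sh+cyto. These were not counted by gene type. Among chromosomes the share called higher ran from 10.5% (chromosome X) to 17.8% (chromosome 6), and the share called lower from 15.3% (chromosome 13) to 25.0% (chromosome 11).

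The response was then set beside that of the line with the scrambled hairpin, in 1 fit of all 12 libraries. In HaCaT_sh 1952 genes were higher (14.7%) and 2716 lower (20.4%), against 1866 higher (14.0%) and 2723 lower (20.5%) in HaCaT_ctrl. Of the higher genes 1511 were shared, 77.4% of those of HaCaT_sh and 81.0% of those of HaCaT_ctrl, and of the lower genes 2270, which is 83.6% and 83.4%. A test of the difference between the responses, HaCaT_sh minus HaCaT_ctrl, called 186 genes higher (1.40%) and 163 lower (1.23%) of 13296, together 2.62%. A higher difference means a response more positive in HaCaT_sh, which can be a smaller fall. Since IQGAP3 did not go with the label in unstimulated libraries, these differences are between the libraries labelled so. When the difference itself was tested against 2-fold, 24 genes were higher and 12 lower.

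Opposite calls were rare, with 6 genes higher in HaCaT_sh and lower in HaCaT_ctrl, and 1 gene the reverse. SERPINB3, a clade B serpin and keratinocyte antigen, was at 69.6, 70.9 and 67.4 CPM in HaCaT_sh+cyto, against 63.4, 84.3 and 75.02 CPM in HaCaT_sh, and at 240.3, 189 and 249 CPM in HaCaT_ctrl+cyto, against 16.5, 16.6 and 14.5 CPM in HaCaT_ctrl (difference −3.94, SE 0.163, adjusted p = 3.48e-09). It was not called in HaCaT_sh and rose in HaCaT_ctrl, but the level without cytokines was also higher in HaCaT_sh. SERPINB4, a near-identical copy, showed the same (difference −3.33, SE 0.349, adjusted p = 3.87e-05). SPRR3, an envelope protein, was at 7.21, 7.95 and 6.30 CPM in HaCaT_sh+cyto, against 2.18, 2.98 and 2.01 CPM in HaCaT_sh, and at 1.96, 1.01 and 1.82 CPM in HaCaT_ctrl+cyto, against 15.7, 14.8 and 14.5 CPM in HaCaT_ctrl (difference 4.81, SE 0.271, adjusted p = 1.51e-07), thus higher with cytokines in HaCaT_sh and lower in HaCaT_ctrl. S100A8 was at 2.17, 2.21 and 2.24 CPM in HaCaT_sh+cyto, against 2.07, 1.71 and 1.89 CPM in HaCaT_sh, and at 1.11, 0.314 and 0.666 CPM in HaCaT_ctrl+cyto, against 9.12, 6.49 and 6.46 CPM in HaCaT_ctrl (difference 3.61, SE 0.390, adjusted p = 4.22e-05). Its fall in HaCaT_ctrl was not seen in HaCaT_sh.

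MHC class II genes and keratins of activated epithelium were among those with a higher difference. Over all genes 1.40% had a difference called higher and 1.23% lower, and the list counts below stand beside these shares. Of the 14 class II genes tested in the response 6 had a called difference, all of them higher. HLA-DRA was at 12.8, 15.4 and 11.1 CPM in HaCaT_sh+cyto, against 2.85, 3.53 and 3.67 CPM in HaCaT_sh, and at 8.15, 12.4 and 13.4 CPM in HaCaT_ctrl+cyto, against 11.2, 14.1 and 10.7 CPM in HaCaT_ctrl (difference 2.04, SE 0.272, adjusted p = 2.29e-04). Its stimulated libraries overlapped between the lines, while those without cytokines lay lower in HaCaT_sh. KRT16 (difference 2.39, SE 0.221, adjusted p = 1.47e-05) and KRT17 (difference 1.88, SE 0.269, adjusted p = 3.82e-04) were among 4 of 13 keratins of activated and simple epithelium with a higher difference. In the antiviral list 4 of 37 were higher, and in the antimicrobial list 4 of 12 were higher, with RNASE7 (1.35) among them. Among division genes 8 of 53 in the G2/M list and 10 of 48 in the DNA replication list had a difference called lower. CDK1 was at 2.62, 2.95 and 3.01 CPM in HaCaT_sh+cyto, against 128, 124 and 113 CPM in HaCaT_sh, and at 5.02, 6.85 and 6.54 CPM in HaCaT_ctrl+cyto, against 98.7, 91.6 and 105 CPM in HaCaT_ctrl (difference −1.41, SE 0.168, adjusted p = 9.26e-05), so it fell in both lines and further in HaCaT_sh. CDT1, a replication licensing factor, was at 18.6, 17.4 and 21.1 CPM in HaCaT_sh+cyto, against 133, 108 and 137 CPM in HaCaT_sh, and at 22.2, 32.8 and 29.3 CPM in HaCaT_ctrl+cyto, against 49.5, 43.6 and 49.4 CPM in HaCaT_ctrl (difference −1.97, SE 0.181, adjusted p = 1.47e-05). Its level without cytokines was higher in HaCaT_sh, as was that of IQGAP3. IQGAP3 itself had a lower difference (difference −1.95, SE 0.310, adjusted p = 7.59e-04).

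Several inflammatory and stress genes rose by a smaller fold in HaCaT_sh. IL1B was at 83.97, 87.1 and 91.1 CPM in HaCaT_sh+cyto, against 8.38, 8.16 and 9.87 CPM in HaCaT_sh, and at 130.2, 65.4 and 82.2 CPM in HaCaT_ctrl+cyto, against 1.51, 1.10 and 2.37 CPM in HaCaT_ctrl (difference −2.47, SE 0.380, adjusted p = 5.98e-04), with IL1A alike (difference −2.34, SE 0.366, adjusted p = 6.75e-04). The stimulated libraries of IL1B overlapped between the lines, and those without cytokines lay higher in HaCaT_sh. ASNS was at 319, 341 and 285 CPM in HaCaT_sh+cyto, against 49.1, 36.1 and 45.4 CPM in HaCaT_sh, and at 407, 434 and 447 CPM in HaCaT_ctrl+cyto, against 12.3, 10.2 and 16.2 CPM in HaCaT_ctrl (difference −2.20, SE 0.188, adjusted p = 7.16e-06). HBEGF (difference −1.47, SE 0.264, adjusted p = 0.00171) and C1S (difference −1.19, SE 0.131, adjusted p = 5.06e-05) also had a lower difference.

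**Figure D5:**
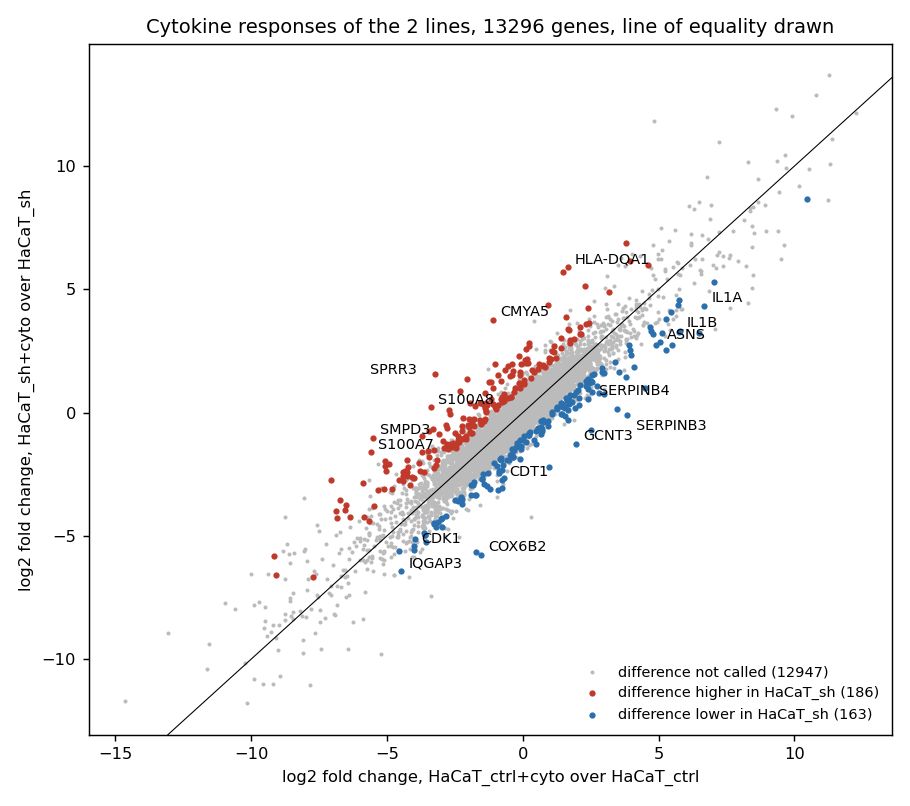
Log2 fold change with cytokines in HaCaT_sh (vertical axis) against that in HaCaT_ctrl (horizontal axis) for 13296 genes, from 1 fit of 12 libraries, with the line of equal response. Red points are the 186 genes with a difference called higher in HaCaT_sh and blue the 163 called lower. SPRR3, CMYA5, S100A7 and HLA-DQA1 stand above the line, and SERPINB3, COX6B2 and ASNS below it.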

How the data were processed

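The 12 libraries were directional paired-end RNA-seq libraries. The deposited file holds counts per gene: the authors trimmed reads with Cutadapt (quality 10, minimum length 25), aligned them with STAR to hg19 and used Gencode 19 genes. How reads were counted, with which strand setting and which versions, is not stated in these sources, so reads of overlapping or antisense genes cannot be told apart.

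From the deposited counts, genes reaching 1 CPM in 3 or more of the 6 libraries were kept, scaled by TMM and tested with the quasi-likelihood test of edgeR 4.0.16 (R 4.3.3). The p-values were adjusted by Benjamini-Hochberg across every gene tested. Calls needed an adjusted p below 0.01 and a 2-fold change. The difference between the lines was the interaction term in a fit of 12 libraries (1 CPM in 6 or more). Libraries held 13079055 to 17308021 counts, and the common biological coefficient of variation was 7.76%. In simulated data, with 200 genes changed, 92% of 2.5-fold and 97% of 4-fold changes of the response were recovered, with 0 false calls. For the difference these shares were 84% and 96%, with 1 false call. Recovery with a larger share of genes changed was not tested.

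Gene positions and types came from Gencode 44 mapped to GRCh37, and promoters from RefSeq (GRCh38.p14), with names matched by symbol. Lower bounds allow 3 counts over a group without counts.

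Named genes were IQGAP3, its paralogs, S100A8 and FOSL1, the 12 largest and the 6 most counted calls in each direction among protein-coding genes (mean of at least 5 CPM), up to 5 called members of each list by smallest p, and the 6 largest differences in each direction. Another 74 genes were chosen after their values were seen. Some genes that the rule named are not reported here. All members and lists were chosen with earlier results of these data known. Alternatives were limma-voom (limma 3.58.1), DESeq2 1.42.0, other scalings, filters and thresholds, a replicate block and leaving out each library.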

Additional observations from a re-analysis of the deposited data

Results flagged for a closer look

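The cytokine response of 48 named genes differed between the lines by the interaction test in edgeR, 25 with a higher and 23 with a lower difference of log2 fold changes, HaCaT_sh minus HaCaT_ctrl. The values are given without an explanation.

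Among immune genes the difference was 3.61 for S100A8, 3.99 for S100A7, 2.84 for S100A9 and 1.35 for RNASE7, all antimicrobial proteins. It was 4.25 for HLA-DQA1, 2.34 for HLA-DRB1, 2.04 for HLA-DRA and 1.12 for CTSS, the class II genes and a protease that cleaves the invariant chain. RSAD2 (1.26), IDO1 (1.19), CCL22 (1.30), TNFSF10 (2.11) and VTCN1 (2.04) were higher as well. IL1B (−2.47), IL1A (−2.34), GBP6 (−1.05), C1S (−1.19), CD55 (−1.17) and NOS1 (−1.25) were lower.

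Among epidermal genes SPRR3 (4.81), IVL (2.58), KRT16 (2.39), KRT17 (1.88) and KRT23 (1.70) were higher, and the serpins SERPINB3 (−3.94) and SERPINB4 (−3.33) were lower. Among genes of the cell cycle IQGAP3 (−1.95), CDK1 (−1.41), ANLN (−1.14), TTK (−1.31), FOXM1 (−1.24), TYMS (−1.22) and CDT1 (−1.97) were lower. Among signalling genes ITGB8 (1.23), ID3 (1.04) and DUSP5 (1.05) were higher, and HBEGF (−1.47) and HEY1 (−2.30) were lower. Of the amino acid enzymes PSAT1 (−1.39) and ASNS (−2.20) were lower, and the phospholipase PLA2G2A (2.50) was higher.

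The remaining genes were named for the size of their difference. CMYA5 (4.84), SMPD3 (4.48, and 5.13 without HaCaT_ctrl+cyto replicate 2) and CHST4 (4.33) were higher. COX6B2 (−4.22, and −3.61 without HaCaT_sh+cyto replicate 1), ZPLD1 (−3.27), GCNT3 (−3.24) and MAP1B (−3.21) were lower. S100A9 had a difference of 3.56 without HaCaT_ctrl+cyto replicate 1. ZPLD1 lost its call without HaCaT_ctrl replicate 2 (−2.95) or 3 (−2.90) and stood at −4.25 without replicate 1, and MAP1B lost it without HaCaT_sh replicate 2 (−2.95). With the replicate block IDO1 (1.18, adjusted p = 0.0113), CTSS (1.12, adjusted p = 0.0103) and FOXM1 (−1.24, adjusted p = 0.0110) lost their calls in edgeR. Calls close to the threshold were lost without any of 10 libraries for IDO1, 9 for FOXM1, 9 for ID3, 8 for CTSS, 7 for ANLN, 7 for KRT23, 3 for DUSP5 and 2 for GBP6, and their differences then ran from 0.93 to 1.32 for IDO1, −0.97 to −1.30 for FOXM1, 0.80 to 1.07 for ID3, 0.97 to 1.18 for CTSS, −0.88 to −1.18 for ANLN, 1.55 to 1.74 for KRT23, 0.90 to 0.98 for DUSP5 and −0.96 to −0.98 for GBP6.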

How the results depend on the processing

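The response of HaCaT_sh kept its direction for 321 of the 324 named genes under 16 alternatives. The exceptions, none of them called, were IFNGR2 (0.14, and −0.08 with library size alone), MCM2 (0.17 and −0.04) and MCM6 (0.14 and −0.07). A test against a 2-fold change called 1332 higher genes in place of 2013, and the other counts stayed within 1.5 times, at 1504 to 2448 higher and 1931 to 3702 lower genes. Leaving out 1 library gave 1967 to 2040 higher and 2762 to 2863 lower genes. Of the named genes 24 lost their call in the test against 2-fold, 11 with library size alone and 3 without 1 library, while 4 gained one with library size alone and 5 without 1 library.

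The difference between the lines depended more on the thresholds. With no filter on low counts 284 genes were higher and 282 lower, at an adjusted p below 0.05 there were 283 and 250, and in a test against 2-fold 24 and 12. Leaving out 1 library gave 137 to 242 higher and 119 to 238 lower genes. Of the 48 named differences 32 lost their call in the test against 2-fold, 4 with limma-voom, 3 with the replicate block and 10 without 1 library. The cause of these changes was not tested.

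The replicate numbers were not taken to pair the samples, since they are not stated to pair cultures. Same-numbered libraries of HaCaT_sh+cyto and HaCaT_sh deviated together with correlations of 0.0886, 0.0340 and 0.193. HaCaT_sh+cyto replicate 2 correlated better with HaCaT_sh replicate 1 (0.126), while the other 5 differently numbered pairs lay at −0.166 to −0.00752. Deviations were taken from each group's own mean, so these correlations depend on each other and cannot settle whether the numbers pair samples. In HaCaT_ctrl+cyto and HaCaT_ctrl the same-numbered correlations were −0.00802, −0.0203 and 0.0570. With the replicate block 2017 genes were higher and 2834 lower in the response, and 178 and 147 in the difference. Library size alone turned the sign of the median of 5 of the 48 lists.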
